A study of Canis lupus familiaris with 4 samples.

Results

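The insulin-like growth factor binding proteins (IGFBPs) are a family of secreted proteins that hold insulin-like growth factors in the extracellular space. The genes described here are IGFBP2, IGFBP4, IGFBP5, IGFBP6 and IGFBP7, chosen by name as 5 of the 11277 genes in the count tables. IGFBP1 and IGFBP3, the other family members, are not among these 11277 genes and were not analysed here. RNA from mammary ductal carcinoma (libraries T1 and T2) was compared with RNA from adjacent non-tumor mammary tissue (libraries C1 and C2, the control). The tissue came from radical mastectomies of 6 female dogs of different breeds, not neutered and aged 5 to 14 years, with early-stage, naturally occurring disease and no experimental treatment. Each library was made from the pooled RNA of 3 dogs, where pool 1 (C1 and T1) and pool 2 (C2 and T2) were separate sets of animals. An n of 2 therefore counts pools, variation between single dogs is not seen, and the adjacent tissue is not tissue of healthy animals.

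IGF1 and IGF2 act mainly through the receptor IGF1R, and binding proteins decide how much free ligand reaches it. IGFBP2 to IGFBP6 bind both ligands with high affinity through cysteine-rich domains at both ends of the protein. Cleavage by proteases such as the pappalysins lowers this affinity and releases the ligand. IGFBP7 lacks the typical second domain and binds insulin-like growth factors only weakly. In the mammary gland IGFBP5 is known for its strong induction when the gland regresses after weaning. Besides binding ligand, several members attach to extracellular matrix or to cell surface proteins.

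The libraries held between 3236218 (T2) and 35496260 (T1) counts, with 32352002 in C1 and 4027367 in C2. Levels are given as CPM (counts scaled to a common library total) after TMM normalization, a scaling that assumes most genes to be unchanged. The most that a count of 0 allows (3 counts) was 0.0858 CPM in T1 and 0.892 CPM in T2, and every IGFBP gene lay above this in every library. A gene was called at an adjusted p under 0.05 by edgeR's quasi-likelihood test (Benjamini-Hochberg, all genes) if it also moved by 1 or more on the log2 scale in either direction. Nothing states that the pools of a group differ only by animal, so p-values measure the spread between these pools, part of which may be technical. Where the pool number was added to the fit, the shift shared by both libraries of a pool was taken out of that spread. With 2 libraries in each group an exact permutation test cannot go below p = 0.333. Intervals on ratios and shares are exact 95% intervals and cover counting error only.

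One limit concerns the names of IGFBP2 and IGFBP5, which lie side by side in the RefSeq table of assembly UU_Cfam_GSD_1.0. The count tables give a length of 23512 bases for IGFBP2 and 16297 for IGFBP5, whereas the RefSeq spans are 16298 and 21768 bases. The deposited lengths are thus nearer to the span of the other gene, and that of IGFBP5 is within 1 base of the IGFBP2 span. Among 9411 genes matched by symbol, 2 had a deposited length within 1 base of a neighbouring gene's span. Another comparison gave 36 within 1 base of their own span. Among 5123 neighbouring pairs with both genes in the tables, 2 had lengths within 10% of the other gene's span with neither within 20% of its own. This pair was one of them, and the comparison of lengths was added after the values had been seen. The sources used here do not name the build behind the tables, so whether the names or only the gene models differ was not tested. Values below follow the deposited names.

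By the deposited names, IGFBP5 rose in carcinoma and IGFBP6 fell. IGFBP5 was 12.4-fold higher and IGFBP6 3.81-fold lower. IGFBP2 was higher and IGFBP4 lower in carcinoma within both pools, but the difference between pools was of similar size and neither passed the test. IGFBP7 had the smallest fold change of the 5 genes. In pooled tissue RNA fewer cells of a type and less RNA per cell cannot be told apart. Of the 5 genes, 1 was called higher, where 4.62% of all genes were, and 1 was called lower, where 5.24% were. When the pool number was added as a replicate block, which compares tissues of the same dogs, 2 were called higher (IGFBP2 and IGFBP5) and 2 lower (IGFBP4 and IGFBP6). The share of all genes called was then 7.09% for higher and 6.83% for lower.

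**Figure D1:**
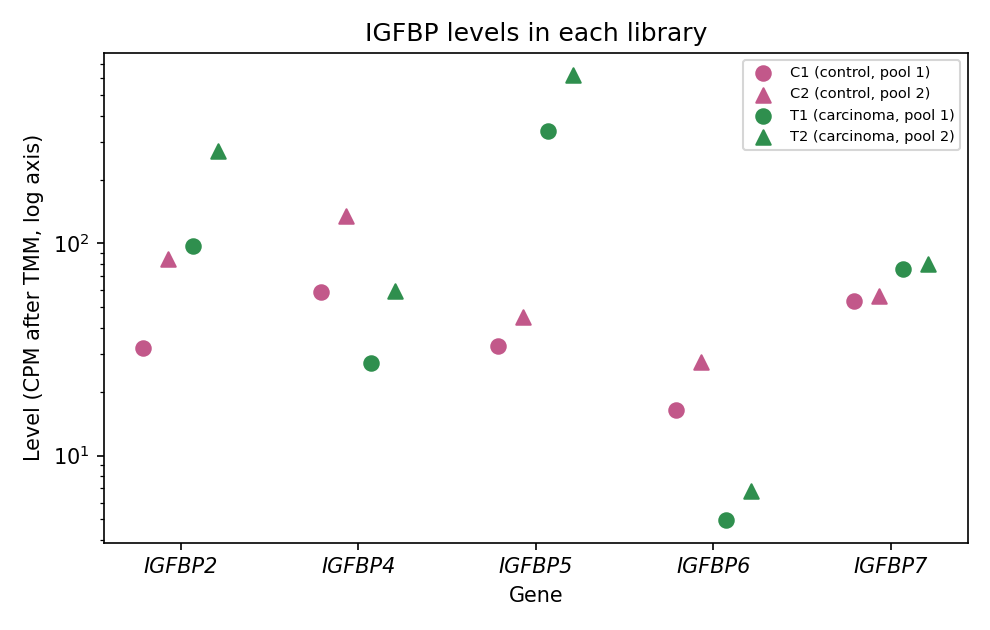
Level of each IGFBP gene (CPM after TMM, log axis) in each library, where pink stands for control, green for carcinoma, a circle for pool 1 and a triangle for pool 2. IGFBP5 lies at 32.8 and 45 CPM in control and at 339 and 620 CPM in carcinoma, whereas the control and carcinoma symbols of IGFBP4 overlap.

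IGFBP5 encodes a binding protein with high affinity for matrix as well as for ligand, and it is a substrate of pappalysins and other proteases. Its level was 32.8 (C1) and 45 CPM (C2) in control and 339 (T1) and 620 CPM (T2) in carcinoma. Both carcinoma libraries lay far above both controls, with no overlap. Control had a mean of 38.9 ± 8.6 CPM (SD, n = 2) and carcinoma one of 479 ± 198 CPM. The log2 fold change was 3.64 (standard error 0.36, edgeR adjusted p = 0.00503). Among all genes 0.417% had a larger log2 fold change. Within pools the ratio of carcinoma to control was 10.3 in pool 1 (interval 9.68 to 11.1) and 13.8 in pool 2 (11.9 to 16). These counting intervals do not overlap. IGFBP5 was called under every alternative run, with log2 fold changes from 3.15 to 3.97.

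IGFBP4, also cleaved by the pappalysin PAPPA, is known mainly as an inhibitor of insulin-like growth factor action. Its level was 58.8 (C1) and 135 CPM (C2) in control and 27.4 (T1) and 59.5 CPM (T2) in carcinoma. The groups overlapped, since T2 lay slightly above C1, but carcinoma was below the control of the same dogs in both pools. Control was 2.14-fold above carcinoma in pool 1 (interval 1.98 to 2.32) and 2.27-fold in pool 2 (1.93 to 2.68). Without the block the log2 fold change was −1.19 (standard error 0.54, edgeR adjusted p = 0.226), and IGFBP4 did not pass. With the replicate block, which leaves 1 residual degree of freedom, 64.1% of all genes had an adjusted p (edgeR) under 0.05. In that fit the log2 fold change was −1.13 (standard error 0.08, edgeR adjusted p = 2.05e-32) and IGFBP4 was called lower. DESeq2 without a block also called it (adjusted p = 0.0421), in a test that called 5.08% of all genes higher and 5.61% lower, as did edgeR without T2 (log2 fold change −1.80, adjusted p = 0.0139). The log2 fold change was −0.49 without C2 (adjusted p = 0.474), −0.73 without T1 (adjusted p = 0.367) and −1.74 without C1 (adjusted p = 0.0746).

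IGFBP6, which prefers IGF2 over IGF1, was the least abundant of the 5 genes by CPM. It had 16.4 (C1) and 27.6 CPM (C2) in control and 4.95 (T1) and 6.84 CPM (T2) in carcinoma. Both carcinoma libraries lay below both controls. Control had a mean of 22 ± 7.89 CPM (SD, n = 2) and carcinoma one of 5.9 ± 1.34 CPM, which makes a log2 fold change of −1.93 ± 0.37 (SE, edgeR adjusted p = 0.0319). Control was 3.32-fold above carcinoma in pool 1 (interval 2.78 to 3.97) and 4.03-fold in pool 2 (2.57 to 6.61), the latter resting on 23 counts in T2. The call was lost without C2 (adjusted p = 0.0794), without T1 (adjusted p = 0.0974) and with scaling to library totals alone (adjusted p = 0.0675). The log2 fold change was −1.52, −1.71 and −1.92 in these fits.

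IGFBP2 carries a motif that integrins recognize and binds to cell surfaces as well as to ligand. Its level was 32.2 (C1) and 84.1 CPM (C2) in control and 97.1 (T1) and 272 CPM (T2) in carcinoma. The order followed pool as much as tissue, and the carcinoma library of pool 1 lay only just above the control library of pool 2. Within pools carcinoma was 3.02-fold above control in pool 1 (interval 2.81 to 3.25) and 3.23-fold in pool 2 (2.85 to 3.65). Without the block the log2 fold change was 1.69 (standard error 0.66, edgeR adjusted p = 0.177), and IGFBP2 did not pass. With the replicate block 64.1% of all genes had an adjusted p (edgeR) under 0.05. In that fit the log2 fold change was 1.63 (standard error 0.07, edgeR adjusted p = 1.76e-58) and IGFBP2 was called higher. It also passed without C2 (log2 fold change 2.50, adjusted p = 0.0428) and without T1 (2.21, adjusted p = 0.029). The log2 fold change was 1.06 without C1 (adjusted p = 0.437) and 0.78 without T2 (adjusted p = 0.35).

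IGFBP7 is a protein of vessel walls and basement membranes. Its level was 53.7 (C1) and 56.6 CPM (C2) in control and 75.4 (T1) and 79.7 CPM (T2) in carcinoma. Replicates lay close together and the groups did not overlap, but the difference was small. Control had a mean of 55.1 ± 2.04 CPM (SD, n = 2) and carcinoma one of 77.5 ± 3.06 CPM, which makes a log2 fold change of 0.49 ± 0.12 (SE, edgeR adjusted p = 0.0567). The ratio of carcinoma to control was 1.4 in pool 1 (interval 1.32 to 1.5) and 1.41 in pool 2 (1.18 to 1.68). With the replicate block the adjusted p (edgeR) was 2.17e-09 at the same log2 fold change, under the threshold of 1. In that fit 64.1% of all genes had an adjusted p under 0.05, so this p sets IGFBP7 apart little.

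**Figure D2:**
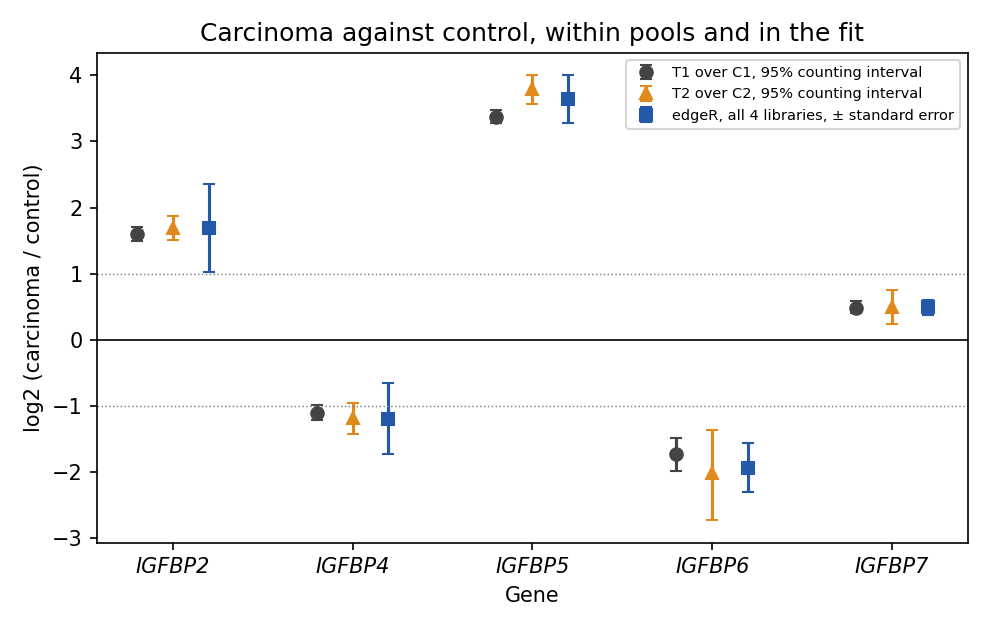
Log2 ratio of carcinoma to control for each IGFBP gene, in pool 1 (circles) and pool 2 (triangles) with 95% counting intervals, and as fitted by edgeR over all 4 libraries (squares, ± standard error). The counting intervals of the pools overlap for every gene except IGFBP5, which lies at 3.37 in pool 1 and 3.78 in pool 2. The standard errors of IGFBP2 (0.66) and IGFBP4 (0.54) are the widest.

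By CPM, 4 of the 5 genes had groups that did not overlap, IGFBP2, IGFBP5 and IGFBP7 above control and IGFBP6 below. Of all genes, 29.6% had both carcinoma libraries above both controls and 28% had both below. Such separation is therefore common in these libraries and is not a result about the IGFBP genes. The direction within pools was the same in both pools for all 5 genes, as it was for most genes, with 45.1% higher and 39.4% lower in carcinoma in both pools.

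The IGFBP genes differed in how strongly they varied between the sets of dogs. IGFBP2 was 2.62-fold higher in C2 than in C1 (interval 2.31 to 2.96) and 2.8-fold higher in T2 than in T1 (2.6 to 3.01). IGFBP4 was 2.3-fold higher in C2 (2.09 to 2.53) and 2.17-fold higher in T2 (1.85 to 2.53). Both lay toward the upper end of all genes. Among the 7712 genes that had 50 or more counts in each of the libraries, 98.5% had a smaller log2 offset between controls than IGFBP2 and 97.4% a smaller one than IGFBP4. IGFBP5 was offset by 1.37-fold in control and 1.83-fold in carcinoma, and IGFBP7 by 1.05-fold and 1.06-fold. IGFBP6 was offset by 1.68-fold in control, and the interval in carcinoma, 0.853 to 2.14, included 1.

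Library depth and pool cannot be told apart, since both libraries of pool 2 were the shallow ones. By the paper's account the dogs of pool 1 were older on average, so mean age cannot be told apart from pool either. Gene length also moved with the offset. The 4104 genes of up to 20000 bases had a median log2 offset of 0.14 in control and 0.15 in carcinoma, against −0.08 and −0.05 for longer genes. By its deposited length IGFBP2 belongs to the longer genes and by its RefSeq length to the shorter, while IGFBP4 is among the shorter by both. Those shifts are smaller than the log2 offsets of IGFBP2 (1.39 and 1.48) and IGFBP4 (1.20 and 1.12). Their part in the offsets was not tested.

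**Figure D3:**
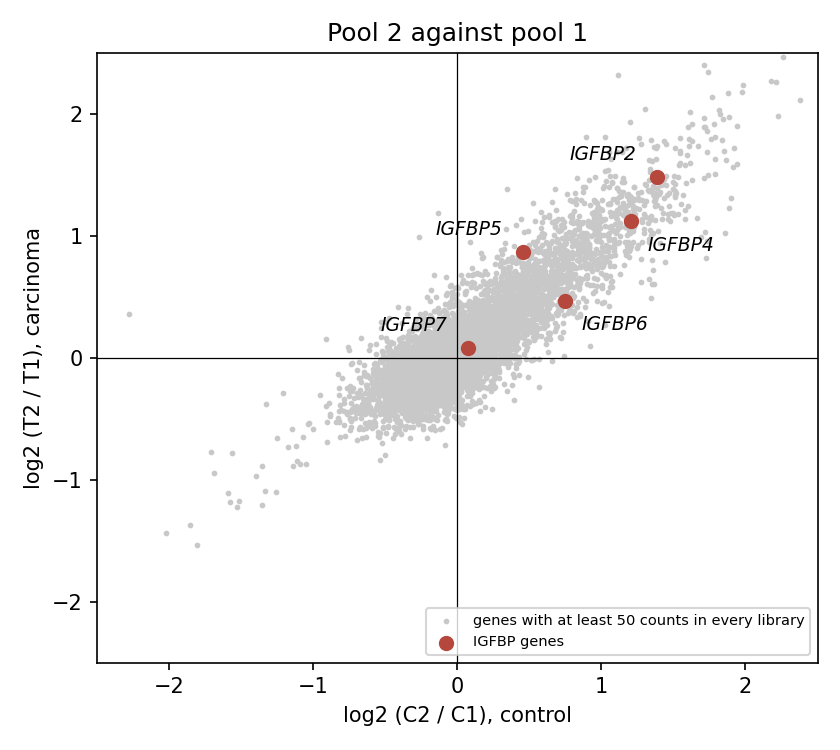
Log2 ratio of pool 2 to pool 1 in control (C2 over C1, x axis) and in carcinoma (T2 over T1, y axis) for genes that had 50 or more counts in each of the libraries (gray) and for the IGFBP genes (red, with IGFBP6, which had fewer counts in T2). Another 19 genes lie outside the axes, IGFBP2 stands at 1.39 and 1.48, and IGFBP7 is near 0.

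The make-up of the family, taken as each gene's share of the counts of all 5, does not depend on scaling between libraries. A share also falls when another of the 5 genes rises, so it does not give the direction of a gene's own level. Shares of counts are not scaled by gene length, so they do not rank the genes by mRNA level. IGFBP4 held the largest share in control, 30.3% in C1 (interval 29.1 to 31.5) and 38.8% in C2 (36.3 to 41.3). IGFBP5 held the largest share in carcinoma, 62.4% in T1 (61.7 to 63) and 59.7% in T2 (58.1 to 61.4), against 16.9% in C1 and 12.9% in C2. The carcinoma libraries lay close to each other and far from both controls.

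The share of IGFBP4 was 5.04% in T1 and 5.74% in T2. IGFBP6 held 8.47% in C1 and 7.92% in C2, but 0.91% in T1 and 0.66% in T2. IGFBP7 held 27.7% (C1) and 16.2% (C2) in control and 13.9% (T1) and 7.69% (T2) in carcinoma. Its level was nonetheless 1.4-fold higher in carcinoma in pool 1 and 1.41-fold in pool 2. The share of IGFBP2 hardly separated the tissues, at 16.6% and 24.2% in control and 17.8% and 26.2% in carcinoma. It differed more between the pools than between tissues of the same dogs. The level of IGFBP2 was 3.02-fold higher in carcinoma in pool 1 and 3.23-fold in pool 2. Counts of IGFBP5 per count of IGFBP4 were 0.559 in C1 and 0.333 in C2, and 12.4 in T1 and 10.4 in T2.

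**Figure D4:**
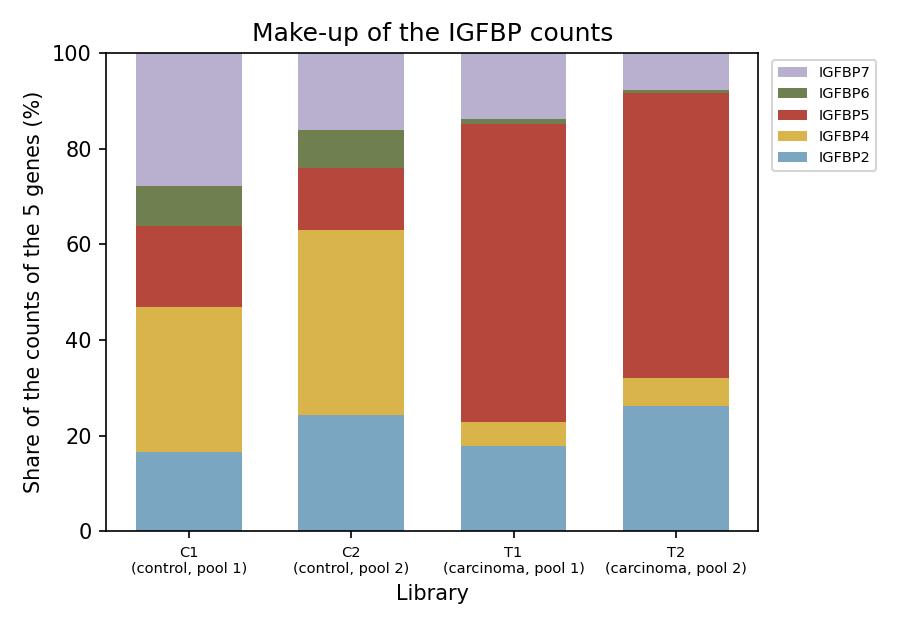
Share (%) of each IGFBP gene in the summed counts of the 5 genes, with 1 bar per library. IGFBP5 takes 16.9% and 12.9% in the control bars and 62.4% and 59.7% in the carcinoma bars, and IGFBP4 goes from 30.3% and 38.8% to 5.04% and 5.74%.

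Counts of different genes also depend on length, and the deposited lengths lie near the gene span with introns. Division by them need not put mRNA levels on a common scale, so the order below holds for this scale only. On a scale of CPM per 1000 bases of deposited length, the order in control was IGFBP4 (mean 8.64), IGFBP6 (5.15), IGFBP2 (2.47), IGFBP5 (2.39) and IGFBP7 (0.799). In carcinoma it was IGFBP5 (29.4), IGFBP2 (7.84), IGFBP4 (3.87), IGFBP6 (1.38) and IGFBP7 (1.12). IGFBP2 and IGFBP5 did not separate in control, where IGFBP2 was below IGFBP5 in C1 (1.37 against 2.01) and above it in C2 (3.58 against 2.76). In carcinoma IGFBP5 stood first in both libraries (20.8 in T1 and 38 in T2). The places of IGFBP2 and IGFBP5 carry the doubt about their lengths, and the length of IGFBP7, 68955 bases, is near its whole RefSeq span of 69229.

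Summed over the 5 genes, the level was 194 (C1) and 348 CPM (C2) in control and 544 (T1) and 1037 CPM (T2) in carcinoma. Without IGFBP5 it was 161, 303, 205 and 418 CPM in the same order. The sum thus separated the tissues with IGFBP5, and without it C2 lay above T1. Within each pool the sum without IGFBP5 was still higher in carcinoma than in control. Over the same libraries the summed level of the ligand genes IGF1 and IGF2 was 196 (C1) and 221 CPM (C2) in control and 32.9 (T1) and 28.6 CPM (T2) in carcinoma. Counts of binding protein genes per count of ligand genes were 0.987 (C1) and 1.57 (C2) in control and 16.5 (T1) and 36.3 (T2) in carcinoma. Both carcinoma libraries lay above both controls, and T2 rests on 96 ligand counts. The counts are reads, so these ratios compare libraries and do not count molecules of protein.

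Among ligands and receptors, both ligand genes and the signaling receptor fell in carcinoma. IGF2 had a log2 fold change of −4.37 ± 0.39 (SE, edgeR adjusted p = 0.00413), IGF1 one of −2.12 (0.19, adjusted p = 0.00405) and IGF1R one of −1.13 (0.11, adjusted p = 0.00483). IGF2R, which clears IGF2, and INSR, the insulin receptor, did not pass. Of 5 measured genes of this list, 3 were called lower, where 5.24% of all genes were, and 0 higher, where 4.62% were. The median log2 fold change of the list was −1.13, against 0.03 over all genes. IGF2R was the 1 gene higher at an unadjusted p under 0.05, and DESeq2 called 0 higher as well.

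The proteases that act on binding proteins moved in both directions. PAPPA, the protease of IGFBP4, rose by 1.03 ± 0.13 (SE, edgeR adjusted p = 0.00965) on the log2 scale, from 32.7 CPM in C1 and 35.2 CPM in C2 to 69.9 CPM in T1 and 68.1 CPM in T2. STC2, which encodes a stanniocalcin that blocks pappalysins, rose by 1.93 (0.12, adjusted p = 0.00209). PAPPA2, a protease of IGFBP5, had a log2 fold change of −2.14 (0.31, adjusted p = 0.0134) at low levels, 8.09 and 9.5 CPM in control and 2.06 and 1.78 CPM in carcinoma. The fourth gene of that list, STC1, did not pass (log2 fold change 0.66, adjusted p = 0.0977). PAPPA and STC2 thus rose, and PAPPA2 fell.

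A further list held proteases of which most are known to cleave binding proteins. Of its 14 measured genes, 2 were called higher (4.62% of all genes were), 1 lower (5.24% of all genes) and 11 did not pass. The median log2 fold change was 0.45. MMP7, a matrix metalloproteinase, had a log2 fold change of 4.58 ± 0.30 (SE, edgeR adjusted p = 0.00215), and PRSS23, a serine protease, one of 1.12 (0.24, adjusted p = 0.0415). ADAM12, which cleaves IGFBP5, had one of −1.73 (0.16, adjusted p = 0.00422). The size of the MMP7 change rests on 4 counts in C2 (0.927 CPM), where 3 counts make 0.695 CPM. With the replicate block 3 of the 14 were higher, where 7.09% of all genes were, the added gene being MMP9.

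Other secreted proteins carry the cysteine-rich domain that opens each IGFBP, among them the CCN proteins. Of 10 measured genes of this list, 3 were called higher (4.62% of all genes were), 2 lower (5.24% of all genes) and 5 did not pass. The median log2 fold change was 0.56. Those higher were WISP1 (CCN4), with a log2 fold change of 3.45 ± 0.28 (SE, edgeR adjusted p = 0.00335), CYR61 (CCN1), with 2.66 (0.20, adjusted p = 0.00277), and CTGF (CCN2), with 1.29 (0.13, adjusted p = 0.00512). Those lower were HTRA3, with −4.06 (0.36, adjusted p = 0.00399), and NOV (CCN3), with −2.52 (0.24, adjusted p = 0.00467). The CCN genes thus went both ways. CTGF has a deposited length of 123998 bases against a RefSeq span of 2923, so the gene model behind its counts is not that of RefSeq.

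Among partners that bind the IGFBPs outside the ligands, 3 of 11 measured genes were called higher, 1 lower and 7 did not pass. Of all genes 4.62% were called higher and 5.24% lower. The median log2 fold change of the partners was −0.05. THBS1, which encodes thrombospondin, had a log2 fold change of 1.68 ± 0.12 (SE, edgeR adjusted p = 0.00261) and SPP1, which encodes osteopontin, one of 1.29 (0.16, adjusted p = 0.00902). FHL2, which encodes an intracellular LIM protein, had one of 1.50 (0.26, adjusted p = 0.0224). These are described partners of IGFBP5. VTN, which encodes vitronectin, another matrix partner of IGFBP5, had one of −3.34 (0.58, adjusted p = 0.0233) at levels of at most 6.03 CPM. It had 4 counts in T2 (1.19 CPM). ITGA5 and ITGB1, the integrin chains that bind IGFBP2, did not pass, with log2 fold changes of −0.61 and −0.53.

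Inside the receiving cell, of 10 measured receptor substrates and adaptors 1 was called, PIK3R1, which encodes a regulatory subunit of a kinase that makes the lipid signal for AKT (log2 fold change 1.48, standard error 0.16, edgeR adjusted p = 0.0065). The median of this list was 0.49. Of 9 genes of hormone signals known to control the axis, 4 were called lower, with a median of −0.97. They were ESR1 (log2 fold change −1.87, adjusted p = 0.00259), PRLR (−1.68, adjusted p = 0.00291), STAT5A (−1.26, adjusted p = 0.0287) and PGR (−1.14, adjusted p = 0.0245), which encode the estrogen receptor, the prolactin receptor, a transcription factor downstream of it and the progesterone receptor. None was called higher by edgeR (3 at an unadjusted p under 0.05) or by DESeq2 (0). Over all these lists, each gene counted once, 11 of 62 genes were called higher and 12 lower. Of all genes 4.62% were called higher and 5.24% lower. The lists were chosen with earlier results of these data known, so no excess over these shares can be read from them.

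**Figure D5:**
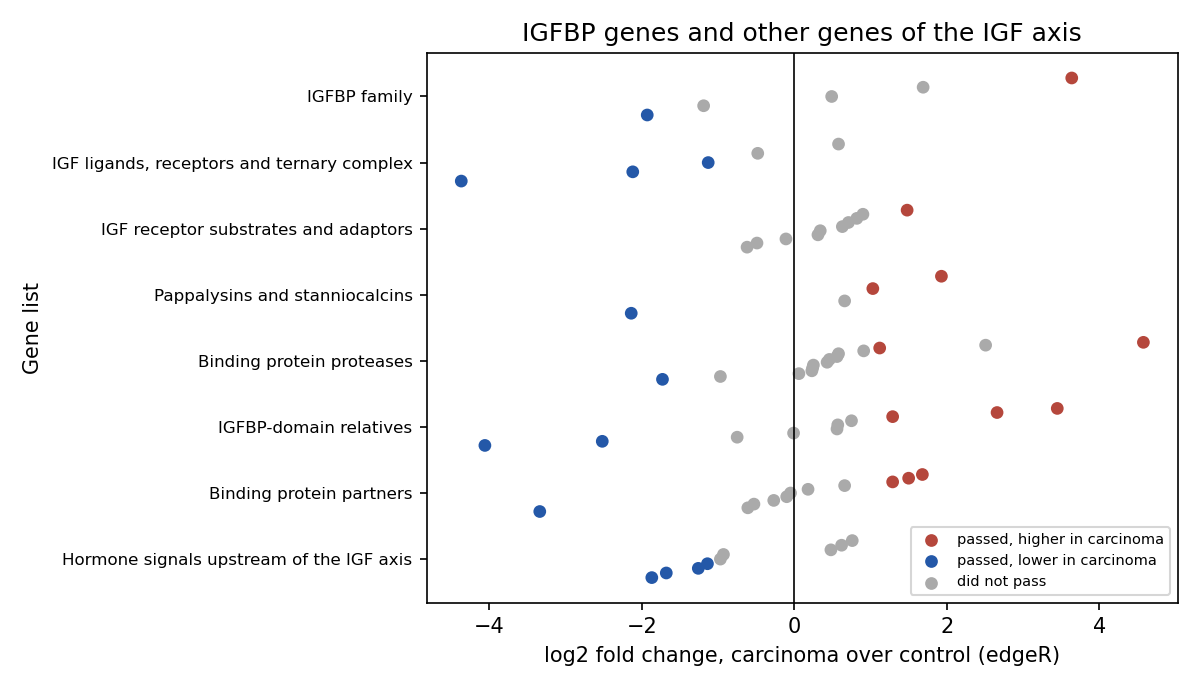
Log2 fold change of carcinoma over control (edgeR) for the IGFBP genes and for 7 lists of other genes of the axis, with 1 point per measured gene, red for genes called higher, blue for genes called lower and gray for the others. IGFBP5 (3.64) and IGFBP6 (−1.93) are the colored points of the family, and the ligand and receptor list reaches −4.37 at IGF2.

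IGFBP2, IGFBP4, IGFBP5 and IGFBP6, but not IGFBP7, lie within 2 genes of a tensin gene in the RefSeq table of assembly UU_Cfam_GSD_1.0. Tensins are adaptors of focal adhesions. IGFBP2 and IGFBP5 are direct neighbours, followed by TNS1. IGFBP4 lies between TNS4 and TOP2A, and TNS2 is the second gene before IGFBP6. None of the tensin genes passed the test. TNS1 had a log2 fold change of 0.14 ± 0.34 (SE, edgeR adjusted p = 0.814), TNS4 one of 0.59 (0.23, adjusted p = 0.176) and TNS2 one of 1.50 (0.84, adjusted p = 0.316). TNS1 was 85.4 (C1) and 120 CPM (C2) in control and 79.6 (T1) and 149 CPM (T2) in carcinoma. No direct neighbour of IGFBP4, IGFBP6 or IGFBP7 that was measured passed either, with SPRYD3 beside IGFBP6 at a log2 fold change of −0.02 and POLR2B beside IGFBP7 at −0.22.

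The genes most like each IGFBP gene were found by the distance between their log2 CPM over the 4 libraries, each centred on its own mean, among 7053 genes that had a symbol and 50 or more counts in each of the libraries. With 4 libraries in 2 tissues and 2 pools this is a description only. IGFBP2 was nearest to ADGRG1 (distance 0.0729), which encodes an adhesion receptor and had 16.5, 45, 50.9 and 136 CPM in C1, C2, T1 and T2. ALS2CL and COL16A1 came next. IGFBP4 was nearest to MYO7A (0.258), ADGRA2 and FBLN2. IGFBP6 was nearest to PDGFRB (0.0912), a receptor gene of fibroblasts and pericytes with 96.5, 158, 28.7 and 42.5 CPM, followed by MGLL and OLFML3. IGFBP6 itself had fewer than 50 counts in T2.

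The nearest genes to IGFBP5 lay farther from it than those of the other IGFBP genes did from theirs. They were CA12 (0.545), a carbonic anhydrase gene, ANOS1 (0.600) and LTF (0.678), which encodes the milk protein lactoferrin. LTF had 355 (C1) and 503 CPM (C2) in control and 2977 (T1) and 3840 CPM (T2) in carcinoma. IGFBP7 was nearest to SRPR (0.0287), VCL and MCPH1.

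IGFBP genes are expressed by several cell types of the gland, so markers of these were followed in the same libraries. Fibroblast markers summed to 7418 and 8326 CPM in control and 2768 and 3587 CPM in carcinoma, with 5 of 9 measured markers called lower (7 by DESeq2, 8 with the replicate block). Blood endothelial markers summed to 806 and 797 CPM in control and 423 and 402 CPM in carcinoma (5 of 8 lower), and lymphatic ones to 1147 and 952 CPM against 209 and 198 CPM (5 of 6 lower). IGFBP4 and IGFBP6 lay in the same direction as these lists. The summed luminal epithelial, macrophage, lymphocyte and striated muscle markers given below were lower in carcinoma as well, so the direction singles out no cell type. Of all genes 5.24% were called lower and 4.62% higher. With the replicate block these shares were 6.83% and 7.09%, and by DESeq2 5.61% and 5.08%. They apply to the marker lists below as well.

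Cartilage markers summed to 155 and 162 CPM in control and 1906 and 2181 CPM in carcinoma. Of 9 measured, 5 were called higher, and 1 was lower at an unadjusted p under 0.05 (edgeR). IGFBP5 and IGFBP2 lay in the same direction as the sum, as did the summed pericyte and myoepithelial markers that follow. Pericyte and vascular smooth muscle markers ranged from 320 to 398 CPM in control and from 439 to 607 CPM in carcinoma. Without the block 0 of 7 were called by edgeR or DESeq2, with 1 in each direction at an unadjusted p under 0.05 (edgeR). By edgeR with the replicate block 1 (CSPG4) was called higher. MYH11 made up most of the sum, at 228 (C1), 251 (C2), 346 (T1) and 411 CPM (T2). MYH11, NOTCH3, CSPG4 and MCAM had positive log2 fold changes, and RGS5, ABCC9 and ACTA2 negative ones. Myoepithelial markers ranged from 583 to 728 CPM and from 897 to 1158 CPM, with 0 of 5 called by edgeR without the block and, at an unadjusted p under 0.05, 3 higher and 1 lower. KRT5 and OXTR were the 2 called higher by DESeq2 and by edgeR with the replicate block. MYLK also had a positive log2 fold change, and TP63 and ACTA2 negative ones. KRT14, KRT17, CNN1 and ITGB4, also on the myoepithelial list, were not measured. Luminal epithelial markers ranged from 1546 to 1673 CPM in control and from 1206 to 1268 CPM in carcinoma, with ELF5 and ESR1 the 2 of 7 called lower. KRT19, EPCAM and CDH1, epithelial markers, were present in every library.

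Adipocyte markers ranged from 353 to 447 CPM in control and from 366 to 434 CPM in carcinoma. Without the block 0 of 5 were called by edgeR or DESeq2, with 1 (PPARG, log2 fold change −0.84) lower at an unadjusted p under 0.05 (edgeR). By edgeR with the replicate block 1 (PLIN4) was called higher. GPAM made up most of the sum, at 258 (C1), 335 (C2), 277 (T1) and 309 CPM (T2). ADIPOQ, PLIN1, LEP, FABP4 and CIDEC, also on the list, were not measured, so the sum does not settle adipocyte content. Macrophage markers ranged from 467 to 498 CPM and from 294 to 359 CPM, with MRC1 the 1 of 7 called lower, and 2 of 3 measured lymphocyte markers were lower, 1 by DESeq2 and 3 with the replicate block (20.2 to 24.1 CPM against 7.73 to 7.87 CPM). Striated muscle markers fell from 1867 and 3009 CPM to 22 and 27.7 CPM (7 of 7 lower), with TNNT3, MB and MYLPF at a count of 0 in T2. No other marker measured was at 0 in any library. The part of any of these cell types in the IGFBP values was not tested.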

How the data were processed

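Total RNA libraries (TruSeq Stranded Total RNA kit, NextSeq) were made from 2 pools of carcinoma and 2 of control tissue. TopHat2 and HTSeq served the authors for mapping and counting by the paper's methods, while STAR, featureCounts, FastQC and DESeq2 stand in the submitters' processing notes. The sources used here give neither a genome build nor a strand setting. The deposited tables hold raw whole-number counts per gene and a gene length in bases, for 11277 genes. Some genes of the lists, such as KRT8, KRT18, FABP4 and CD68, are not among them. Why genes are missing was not tested, so absence does not show a low level.

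The tests used edgeR 4.0.16 (quasi-likelihood, TMM, filterByExpr, which kept all 11277 genes) and DESeq2 1.42.0 in R 4.3.3. Shares, intervals and figures were made with scipy 1.17.1, pandas 2.3.3, numpy 2.4.6 and matplotlib 3.10.9. Scripts were tested on simulated data. Standard errors (SE) of edgeR were obtained from the log2 fold change and the square root of F. Pool numbers pair the tissues of the same dogs by the paper's account. Across genes the deviations from the group mean correlated at 0.782 between libraries with the same number. Both pool 2 libraries were shallow, so this correlation cannot tell shared dogs from shared depth or processing. The replicate block leaves 1 residual degree of freedom, against 2 without it, and lowers the common dispersion from 0.0508 to 0.00216. Its very small p-values rest on this.

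The genes and lists were chosen with earlier results of these data known. Genes named were the IGFBP genes, up to 4 called members of each axis list with the smallest adjusted p, and the 3 genes nearest to each IGFBP gene. From the list of binding partners 1 gene is not reported here and was left out of its counts and median. Other list members (IGF2R, INSR, STC1, MMP9, ITGA5, ITGB1, KRT19, EPCAM, CDH1), some called markers and the neighbouring genes were added once values were known. Of the symbols in the tables, 9411 matched RefSeq. Older symbols (CYR61, CTGF, NOV, WISP1) stand for CCN genes. Alternatives were DESeq2, other scalings and filters, the replicate block and leaving out each library.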

Additional observations from a re-analysis of the deposited data

How the results depend on the processing

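All 5 genes kept their direction under all 11 alternatives. With the replicate block, IGFBP2 (log2 fold change 1.63) and IGFBP4 (−1.13) were called as well, making 2 genes higher and 2 lower, and 800 genes were higher over the whole table. DESeq2 with the replicate block, an alternative chosen after seeing the data, also gave 2 higher and 2 lower (IGFBP2 1.62, IGFBP4 −1.15). The block changed no other call of the 5 genes. DESeq2 with its own size factors and no block gave 2 lower (IGFBP4 −1.20). Scaling to library totals, run with edgeR only, gave 0 lower at an adjusted p under 0.05 (IGFBP6 −1.92) and 1 of the 5 genes lower at an unadjusted p under 0.05. With each library left out in turn, which leaves one tissue with a single library assumed to vary like the other tissue, the genes called numbered 1 to 2 higher and 0 to 2 lower. Log2 fold changes then ranged from 0.78 to 2.5 for IGFBP2, −1.80 to −0.49 for IGFBP4, 3.15 to 3.97 for IGFBP5, −2.33 to −1.52 for IGFBP6 and 0.40 to 0.53 for IGFBP7. Of all genes, 342 to 508 were then higher (342 without C1) and 421 to 548 lower. Causes of these changes were not tested. Depth limits IGFBP6 most, with 23 counts in T2.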
